A study of Mus musculus with 30 samples.

Results

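The AP-1 and Egr immediate early genes are 10 listed transcription factor genes, Fos, Fosb, Fosl1, Fosl2, Jun, Junb, Jund, Egr1, Egr2 and Egr3, out of 45706 genes in the deposited tables. They were chosen by name, as genes present in all 5 tables, with Ensembl identifiers paired to symbols through GENCODE M21, and the rule holds no expression value, although the list was drawn up with earlier results of these data known. The study sequenced RNA from C57BL/6J mouse osteoclast cultures to ask whether cells grown on bone slices differ between ages and between wild-type and Terc-/- mice, which lack the RNA component of telomerase. Bone marrow-derived macrophages were given M-CSF at 25 ng/ml and RANKL at 100 ng/ml, either for 2 days or until large multinucleated cells appeared, here called large-cell cultures. There were 30 libraries in 10 groups of 3: wild type at 6 and 20 months after 2 days, wild-type large-cell cultures at 1, 6 and 20 months, Terc-/- large-cell cultures at 1 and 6 months, and 3 further large-cell groups whose titles carry a mark that the labels do not explain, "gaiwei" (wild type, 1 month) or "519" (Terc-/-, 1 and 6 months). The labels do not say whether libraries came from separate mice, so p-values measure the spread between these libraries, which may be technical, and in bulk RNA fewer cells of a type cannot be told apart from less RNA per cell.

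AP-1 is a dimer of a Fos-family and a Jun-family protein, or of Jun proteins alone, held together by leucine zippers, and Egr proteins bind GC-rich sites through zinc fingers. Immediate early genes are transcribed quickly after a stimulus because their promoters are read by factors that the cell already holds. In the osteoclast lineage c-Fos, the product of Fos, is needed for macrophage precursors to become osteoclasts after RANKL, and it acts upstream of Nfatc1, while Egr1 and Egr2 with the Nab corepressors take part in macrophage differentiation.

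The RefSeq promoter table (GRCm38.p6) held 7 of the 10 genes, in 11 windows of 300 bases. The 250 bases upstream of the start are shown for Fos, Fosb and Egr2, which moved in opposite directions between culture stages, and for Junb, which differed between the genotypes, a choice made after their values were seen. Capitals mark matches, on either strand, to the CRE half-site TGACG, the TATA box TATAAA, the CCAAT box, the Egr-type site GCGNGGGCG and the CArG box, the serum response factor motif.
Fos, chr12:85473640-85473889, plus strand: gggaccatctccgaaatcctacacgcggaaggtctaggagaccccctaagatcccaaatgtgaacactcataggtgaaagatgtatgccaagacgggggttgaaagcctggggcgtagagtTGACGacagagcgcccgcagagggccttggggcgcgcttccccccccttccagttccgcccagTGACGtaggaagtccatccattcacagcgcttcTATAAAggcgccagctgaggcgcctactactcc
Fosb, chr7:19310046-19310295, minus strand: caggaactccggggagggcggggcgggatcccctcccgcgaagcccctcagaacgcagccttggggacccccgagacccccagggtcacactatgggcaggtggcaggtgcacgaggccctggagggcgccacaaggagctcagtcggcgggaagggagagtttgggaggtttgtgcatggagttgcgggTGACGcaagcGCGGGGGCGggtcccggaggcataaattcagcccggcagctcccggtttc
Junb, chr8:84978749-84978998, minus strand: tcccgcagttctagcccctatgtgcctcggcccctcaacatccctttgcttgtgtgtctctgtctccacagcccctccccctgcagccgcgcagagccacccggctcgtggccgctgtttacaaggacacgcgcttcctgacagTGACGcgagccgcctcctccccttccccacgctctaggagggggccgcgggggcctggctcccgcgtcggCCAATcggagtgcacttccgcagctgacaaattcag
Egr2, chr10:67537619-67537868, plus strand: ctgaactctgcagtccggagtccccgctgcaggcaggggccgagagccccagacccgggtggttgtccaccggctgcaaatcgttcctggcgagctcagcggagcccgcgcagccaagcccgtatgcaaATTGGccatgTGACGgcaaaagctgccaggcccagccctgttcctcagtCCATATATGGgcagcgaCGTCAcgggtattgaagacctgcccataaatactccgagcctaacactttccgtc
Fos carried the half-site at 129 and 66 bases before its start and TATAAA at 33 bases. Fosb carried the half-site at 60 bases and the Egr-type site at 50 bases. Junb carried the half-site at 106 bases and CCAAT at 36 bases, with TATAAA (chr8:84978743-84978748) beginning at the start used by the promoter table, outside the stretch shown. The Junb gene as annotated here starts further downstream, at 84978718 on the minus strand. TATAAA therefore lies upstream of that start, and the Junb distances given are not distances from it. Egr2, which had 5 windows, carried a CArG box at 72 bases between half-sites at 111 and 55 bases in the window shown, which lies upstream of its main transcript. That window was picked because it held both motifs, so their presence in it was fixed by the choice. The Egr2 window at chr10:67535249-67535548 matched none of the motifs searched. Of all 32851 promoter windows of the same length, 20.81% held TGACG, 13.62% TATAAA, 37.41% CCAAT, 5.55% GCGNGGGCG and 1.63% a CArG box. The AP-1 site TGANTCA was in 7.81% of windows and in none of those of the 7 genes, which says only that these letters are not in these windows. Fosl2 held GCGNGGGCG, Jun held CCAAT, and Jund matched none of the motifs searched. That Jund window, chr8:70697489-70697788, ends before the gene as annotated here, which starts at 70698949, so it is not the stretch next to that start.

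Levels are in TPM, the transcript abundance corrected for length and library total, a unit read from the values, since all libraries have the same total. Mean levels over the 30 libraries were 184 TPM for Junb, 117 for Fos, 68.2 for Jun, 66.8 for Fosl2, 34.9 for Jund, 17.2 for Fosl1, 15 for Egr2, 12.6 for Egr1 and 2.19 for Fosb. Egr3 averaged 0.682 TPM, ranged from 0 to 1.67, and was the only one of the 10 below the mean of 1 TPM required for testing, which 12614 genes passed. Changes below are log2 differences of TPM scaled between libraries, with 1 TPM added, so they understate changes of genes near 1 TPM such as Fosb. A gene was called where limma gave a Benjamini-Hochberg adjusted p under 0.05 over all tested genes. After scaling, the ratio of the highest to the lowest group mean was 14.3 for Egr1, 13.1 for Fosb, 9.57 for Fos and 6.10 for Egr2, against 3.93 for Junb, 3.88 for Jund, 3.86 for Fosl1, 3.28 for Fosl2 and 2.02 for Jun. In the order of group means, ranges of neighbouring groups overlapped at 4 of 9 steps for Fos, 5 of 9 for Egr1, 6 of 9 for Fosb and Junb, 7 of 9 for Fosl1, Fosl2, Jund and Egr2, 8 of 9 for Jun, and every step for Egr3.

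**Figure D1:**
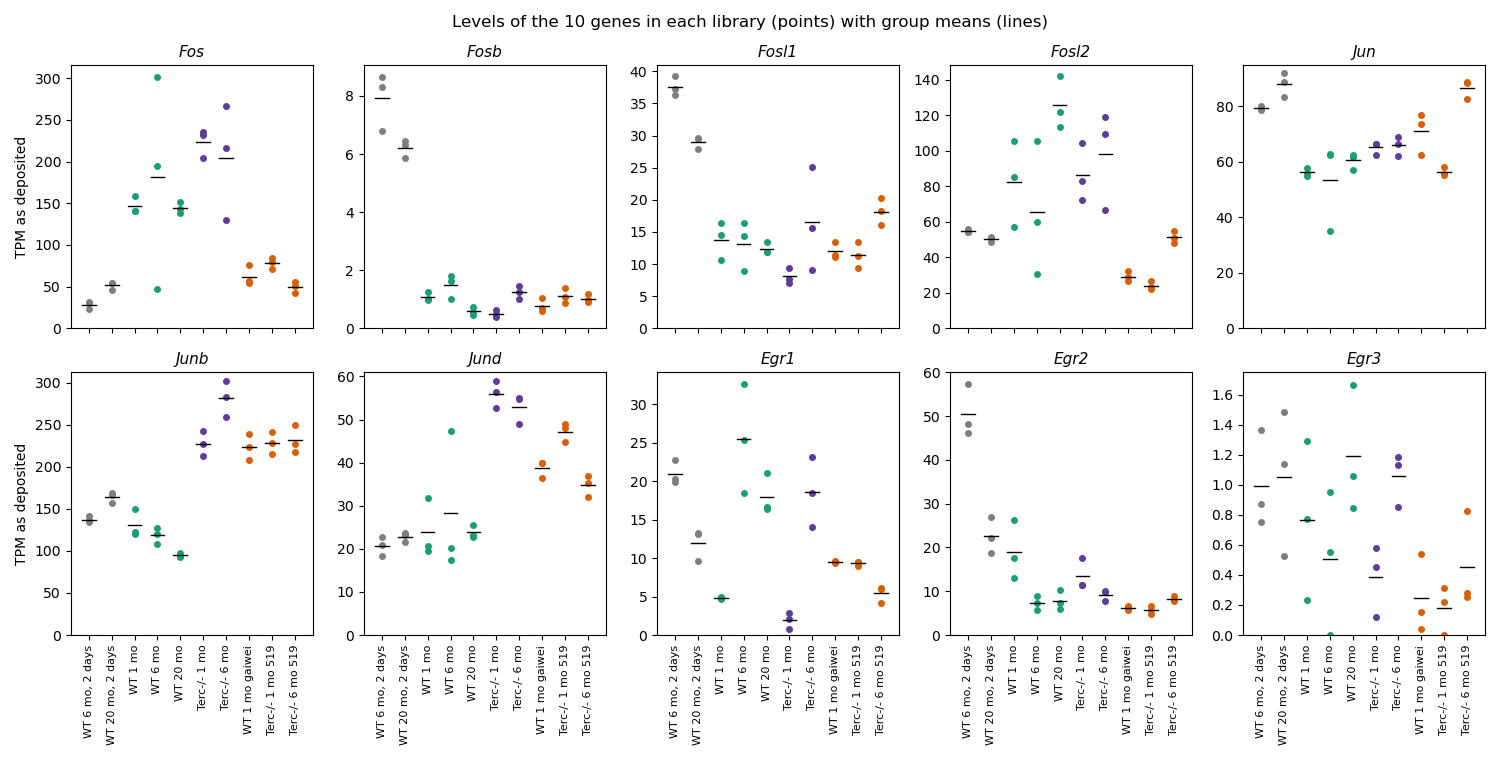
Points are the 30 libraries and lines the group means, in TPM as deposited on axes that start at 0, for the 2-day (grey), wild-type (green), Terc-/- (purple) and marked (orange) groups. Fosb, Fosl1 and Egr2 were highest in the 2-day cultures, Junb and Jund were higher in Terc-/- than in unmarked wild-type means, and Egr1 was lowest at 1 month in the unmarked groups.

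Several features of the libraries bear on the comparisons. Among the wild-type large cells of 6 months, library 2 correlated with its own group at a mean r of 0.909 (0.932 to 0.991 for the other libraries). Results on that group are given with and without it where they change. Xist, transcribed only from the inactive X chromosome, measured 46.6 to 84.1 TPM in the unmarked wild type of 1 month (3 libraries) and at most 0.254 TPM elsewhere. The sex of the cells therefore cannot be told apart from genotype, age or the gaiwei mark in comparisons with that group. Eif2s3y, a Y-linked gene, measured 13.8 to 19.2 TPM in unmarked Terc-/- cells at 1 month and 61.1 to 82.0 TPM at 6 months. With the 519 mark it measured 12.1 to 12.5 and 55.9 to 71.7 TPM. In the other groups with low Xist it was at least 40.8 TPM. Its part in the differences between groups was not tested. Mitochondrial transcripts made up 3.43% of the TPM in that library 2, 5.01% to 10.2% in the other unmarked large-cell libraries, 3.20% to 4.51% in marked and 5.84% to 6.30% in 2-day libraries. Summed over 10 osteoclast markers, unmarked large-cell libraries held 4626 to 28145 TPM, marked ones 659 to 2158 and 2-day ones 350 to 797, and Calcr was listed at 0 in all 3 libraries of the 6-month 2-day and the 1-month 519 groups. Terc itself was listed at 0 in the Terc-/- libraries and in most wild-type ones, so it does not check the labels. Strand use in counting was not given in the sources used here. Among the 10 genes, 4 overlap a gene on the other strand: Junb with Prdx2 (351 bases), Fosl1 with Ccdc85b (2767 bases), Jun with Junos and Jund with Gm11175.

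The first question was what changes between 2 days of RANKL and large-cell cultures, within wild-type mice of 6 or 20 months. Fos (chr12:85473890-85477273 in mm10) was higher in large cells at both ages, while Fosb, Fosl1 and Egr2 were lower at both. At 6 months 6 of the 9 tested genes were called, where 49.9% of all tested genes were called, and at 20 months 8 of 9, against 36.6%. Fos measured 29.8, 23.3 and 31.7 TPM in the 2-day libraries at 6 months and 301, 46.7 and 195 TPM in libraries 1, 2 and 4 of the large cells. Library 2 was the lowest of the large-cell libraries, yet all 3 lay above the 2-day libraries. Fos rose by 2.68 ± 0.29 on the log2 scale (SE, limma, adjusted p = 1.11e-07), or 3.23 without library 2. At 20 months Fos measured 54.3, 54.7 and 45.3 TPM after 2 days and 138, 143 and 151 TPM in large cells, with no overlap. It rose by 1.55 ± 0.29 (adjusted p = 0.000138).

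Fosl2 (chr5:32135801-32157842), which encodes Fra-2, also rose at 20 months, from 51.6, 50.8 and 48.5 to 122, 142 and 113 TPM (1.37 ± 0.19, adjusted p = 2.93e-06). At 6 months it measured 54.4, 55.7 and 54.3 TPM after 2 days and 106, 30.4 and 60.1 TPM in large cells. The deposited values overlapped there and the call was borderline: the log2 change was 0.48 ± 0.19 (adjusted p = 0.0378), 0.08 with TPM as deposited, and 0.21 without library 1 of the large cells, neither of which was called. The call was also lost without any 1 of the 3 2-day libraries, without the filter, with only those groups in the fit and with a variance for each group.

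Fosb (chr7:19302696-19310051), whose splice forms include a truncated protein, measured 6.78, 8.64 and 8.32 TPM after 2 days and 1.79, 1.02 and 1.61 TPM in large cells at 6 months. At 20 months it measured 6.44, 6.31 and 5.85 against 0.571, 0.472 and 0.722 TPM. No large-cell library reached a 2-day library at either age, and Fosb fell by 1.53 ± 0.13 (adjusted p = 6.02e-09) and by 1.99 ± 0.13 (adjusted p = 8.52e-11). Fosl1 (chr19:5447547-5455946), which encodes Fra-1, a Fos protein without a strong activation domain, went from 36.3, 37.2 and 39.3 to 8.90, 14.3 and 16.3 TPM at 6 months and from 29.5, 29.6 and 27.9 to 13.4, 11.8 and 11.9 TPM at 20 months. Its fall was close to 1 log2 unit at both ages (1.08 ± 0.29, adjusted p = 0.00353, and 1.07 ± 0.29, adjusted p = 0.0045), and Ccdc85b, which it overlaps, was not called (-0.54 and -1.07, adjusted p = 0.399 and 0.115). The 6-month Fosl1 call was lost with only those groups in the fit (adjusted p = 0.0877) and with a variance for each group (adjusted p = 0.075).

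The Jun family moved less. Jun (chr4:95049034-95052222), which encodes c-Jun, the principal partner of c-Fos, measured 88.6, 91.9 and 83.4 TPM after 2 days and 62.4, 61.9 and 57.1 TPM in large cells at 20 months, a fall of 0.45 ± 0.09 (adjusted p = 0.000527). Junb (chr8:84974484-84978718), whose product is a weaker activator than c-Jun, measured 169, 166 and 157 TPM against 93.2, 97.2 and 93.6 TPM at 20 months. It fell by 0.71 ± 0.15 (adjusted p = 0.000751). At 6 months the Jun-family changes of -0.21 for Jun, 0.20 for Junb and 0.70 for Jund were not called. The Jun call depended on the scaling. All large-cell libraries lay below the 2-day libraries for Jun. Its fall was called with TPM as deposited (-0.61, adjusted p = 0.000946) and with median-ratio scaling (-0.23, adjusted p = 0.0354). Without large-cell library 1 or 4 the Jund change became 1.12 or 0.93 and was called, as was Jun without library 4 (-0.28).

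Egr2 (chr10:67535475-67542188), also known as Krox20, showed a large fall at both ages. It measured 46.2, 57.4 and 48.1 TPM after 2 days and 8.86, 5.65 and 7.25 TPM in large cells at 6 months, and 27, 18.6 and 22.1 against 10.4, 7.29 and 5.84 TPM at 20 months. The groups did not overlap, and the changes were -2.27 ± 0.18 (adjusted p = 1.39e-09) and -1.33 ± 0.18 (adjusted p = 2.87e-06). Egr1, its close relative, was higher in large cells, at 32.6, 18.5 and 25.3 TPM against 19.9, 20.3 and 22.8 TPM at 6 months and at 21, 16.3 and 16.6 against 13.3, 9.59 and 13.2 TPM at 20 months. The change was 0.62 ± 0.21 at each age (adjusted p = 0.0164 and 0.0218). The deposited values overlapped at 6 months, and neither call was kept with TPM as deposited (0.23, adjusted p = 0.377, and 0.55, adjusted p = 0.0603). Both were also lost with a pseudocount of 0.1 (adjusted p = 0.0502 and 0.0584), the 6-month call with a variance for each group (adjusted p = 0.315), and the 20-month call without large-cell library 1 or 2-day library 3.

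The size of the culture-stage change differed between 6 and 20 months for 4 of 9 genes by limma's interaction term, where 25.5% of tested genes were called. The change at 20 months minus that at 6 months was -1.13 ± 0.40 for Fos (adjusted p = 0.0422), 0.90 ± 0.26 for Fosl2 (adjusted p = 0.0153), 0.93 ± 0.26 for Egr2 (adjusted p = 0.00983) and -0.90 ± 0.22 for Junb (adjusted p = 0.00387). Without 6-month large-cell library 2 the Fos difference was -1.69, and without any 1 of 10 other libraries of the 12 its call was lost, the value lying between -1.20 and -0.75. The Fos call was also lost with TPM as deposited, with median-ratio scaling, without the filter, with a variance for each group and with only those groups in the fit (adjusted p from 0.0507 to 0.265). The Fosl2 call was lost with only those groups in the fit (adjusted p = 0.0601) and the Egr2 call with a variance for each group (adjusted p = 0.129). For Prdx2, which overlaps Junb, the difference was -0.85 ± 0.43 and not called (adjusted p = 0.149). Prdx2 was called higher in large cells at 6 months (0.78, adjusted p = 0.0381) and not called at 20 months (-0.07, adjusted p = 0.888). Its part in the Junb values was not tested. After 2 days alone, 3 of 9 genes differed between the ages (17.5% of tested genes called): Egr2 was lower at 20 months (-1.13 ± 0.18, adjusted p = 0.000159), as was Egr1 (-0.75 ± 0.21, adjusted p = 0.0131), and Fos was higher (0.84 ± 0.29, adjusted p = 0.0424). The Fos call was lost without any 1 of the 6 libraries, with TPM as deposited and without the filter, and the Egr1 call without library 3 of either group. Stromal and osteoblast markers, 13 genes, summed to 6126 to 7305 TPM after 2 days at 6 months, 1972 to 2650 at 20 months after 2 days, and 2358 to 2798 and 5073 to 6412 in the large cells, with Bglap at 0 in all libraries. Their part in these differences was not tested.

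**Figure D2:**
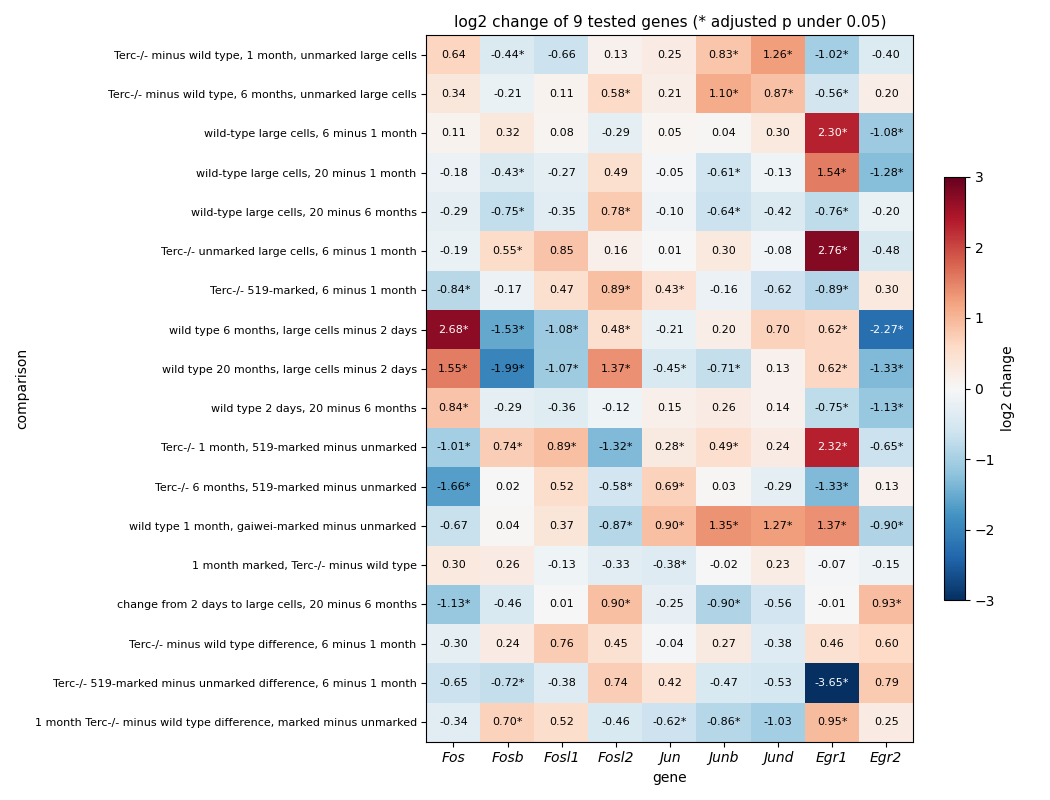
Each cell gives the log2 change of a gene in a comparison, with asterisks where limma's adjusted p was under 0.05 and colour from -3 (blue) to 3 (red). Fos and Fosb take opposite colours in the large-cell comparisons at both ages, and Egr1 has the deepest colours across age and mark, from -3.65 to 2.76.

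The second question was what differed between Terc-/- and wild type in unmarked large cells. The 1-month comparison sets wild-type libraries with high Xist against Terc-/- libraries with low Xist, so genotype and sex cannot be told apart in it. Junb and Jund were higher in Terc-/- at both ages, and Egr1 was lower at both, with the 6-month calls of Jund and Egr1 close to the threshold. At 1 month 4 of 9 genes were called, where 30.9% of tested genes were called, and at 6 months 4 of 9, against 28.7%, so the share of these genes called was not far above the background. Junb measured 213, 242 and 227 TPM in Terc-/- and 149.9, 120.4 and 122 TPM in wild type at 1 month, and 302, 283 and 259 against 120.3, 108 and 127 TPM at 6 months. The Terc-/- libraries were above every wild-type library. Junb rose by 0.83 ± 0.15 (adjusted p = 0.000223) and by 1.10 ± 0.15 (adjusted p = 1.23e-05), or 1.27 without library 2 of the 6-month wild type. Prdx2, which overlaps Junb on the other strand and averaged 261 TPM, was not called in either comparison (-0.01 and -0.44, adjusted p = 0.992 and 0.294).

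Jund (chr8:70698949-70700616), a Jun gene expressed steadily in many cells, measured 52.7, 58.9 and 56.4 TPM in Terc-/- and 31.9, 19.5 and 20.6 TPM in wild type at 1 month (1.26 ± 0.32, adjusted p = 0.00487). At 6 months it measured 54.9, 54.8 and 49.0 TPM in Terc-/- and 17.5, 47.2 and 20.3 TPM in wild type. Library 2 of the wild type held the high value, and the change of 0.87 ± 0.32 (adjusted p = 0.0459) became 1.53 (adjusted p = 7.93e-06) without it. The 6-month call was lost without wild-type library 1 or 4 or any 1 Terc-/- library, at 0.45 to 0.90. It was also lost without the filter, with a variance for each group and with only those groups in the fit (adjusted p from 0.0883 to 0.457).

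Egr1 measured 0.828, 2.03 and 2.93 TPM in Terc-/- and 4.94, 4.65 and 4.88 TPM in wild type at 1 month, without overlap. It fell by 1.02 ± 0.21 (adjusted p = 0.00059). At 6 months it measured 14, 18.4 and 23.2 TPM in Terc-/- and 32.6, 18.5 and 25.3 TPM in wild type. These deposited values overlapped. The change was -0.56 ± 0.21 (adjusted p = 0.0455), and the call was lost without Terc-/- library 1 or 2 or any 1 wild-type library, at -0.61 to -0.38. It was also lost with TPM as deposited, without the filter, with a pseudocount of 0.1, with a variance for each group and with only those groups in the fit (adjusted p from 0.0826 to 0.573). Fosb fell at 1 month, from 0.981, 1.26 and 1.02 to 0.504, 0.382 and 0.632 TPM (-0.44 ± 0.13, adjusted p = 0.0144), a call lost without library 3 of either group, with only those groups in the fit (adjusted p = 0.0695) and with a variance for each group (adjusted p = 0.0801). Fosl2 was called at 6 months (0.58 ± 0.19, adjusted p = 0.0232) but its Terc-/- values of 119, 109.7 and 66.6 TPM overlapped the wild-type values of 106, 30.4 and 60.1 TPM. Without wild-type library 2 the change was 0.35 (adjusted p = 0.145), and the call was also lost without Terc-/- library 1 or 2 or wild-type library 4. Fos at 1 month measured 204, 232 and 235 TPM against 141, 140.2 and 159 TPM, but its change of 0.64 ± 0.29 was not called (adjusted p = 0.0926), except with only those groups in the fit (adjusted p = 0.0263) or with a variance for each group (adjusted p = 0.0434).

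With only the 6-month Terc-/- and wild-type groups in the fit, 0 of 9 genes were called by limma, with 2 at an unadjusted p under 0.05, and with library 2 also left out 2 of 9 were called. With a variance for each group 1 of 9 was called, and without the filter or with TPM as deposited 2 of 9. Other genes were called when 1 library was left out: at 1 month Egr2 without Terc-/- library 4 (-0.54), Fosl1 without wild-type library 4 (-0.89) and Jun without wild-type library 1 (0.36), and at 6 months Fos without wild-type library 1 (0.73) and Jun without wild-type library 4 (0.28). No gene's genotype difference was called as differing between 1 and 6 months (0 of 9 by limma, with 1 at an unadjusted p under 0.05, where 3.74% of tested genes were called), although without wild-type 6-month library 1 the Fosl2 difference of 0.71 was (adjusted p = 0.0448). Other cells moved with genotype. The stromal sum was 312 to 623 TPM in Terc-/- and 1564 to 4078 in wild type at 1 month, and 441 to 2094 against 2358 to 2798 at 6 months, and the sum of 9 macrophage markers was 40072 to 44273 against 24726 to 30576 TPM and 37384 to 44944 against 19981 to 28709 TPM. Their part in the genotype differences was not tested.

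The third question was age. In unmarked large cells Egr1 was higher at 6 months than at 1 month in both genotypes, more than any other of the genes. With the 519 mark it was lower at 6 months, as given below. The wild-type comparison sets 1-month libraries with high Xist against 6-month libraries with low Xist. In wild-type large cells 2 of 9 genes were called between 6 and 1 months (9.57% of tested genes), in Terc-/- also 2 of 9 (4.02%). The Egr1 values given above put every 6-month library above every 1-month library, and Egr1 rose by 2.30 ± 0.21 in wild type (adjusted p = 8.64e-08) and by 2.76 ± 0.21 in Terc-/- (adjusted p = 7.91e-09). In Terc-/-, where no library of the comparison had the Xist level of the 1-month wild type, Fosb also rose, from 0.504, 0.382 and 0.632 to 1.00, 1.46 and 1.24 TPM (0.55 ± 0.13, adjusted p = 0.0157), a call lost without 1-month library 1 or 3 or 6-month library 2 or 4 and with only those groups in the fit (adjusted p = 0.169). These Terc-/- ages differed in the Y-linked Eif2s3y, at 13.8 to 19.2 TPM and 61.1 to 82.0 TPM. Egr2 went the other way in wild type, from 13.0, 26.3 and 17.7 to 8.86, 5.65 and 7.25 TPM, a fall of 1.08 ± 0.18 (adjusted p = 0.000447), which was not called with only those groups in the fit (adjusted p = 0.266) or with a variance for each group (adjusted p = 0.659). The Egr2 change of -0.48 in Terc-/- was not called. Without 6-month wild-type library 2, Fos was called between 6 and 1 months (0.66, adjusted p = 0.039), and without library 1 Fosl2 was (-0.56, adjusted p = 0.0176). In Terc-/- Fosl1 was called without 6-month library 1 (1.21, adjusted p = 0.00887).

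At 20 months 4 of 9 genes differed from 1 month (22.5% of tested genes) and 4 of 9 from 6 months (27.6%). Egr1 lay between the other ages: it was 1.54 ± 0.21 above 1 month (adjusted p = 7.36e-06) and 0.76 ± 0.21 below 6 months (adjusted p = 0.00996), where the deposited values of 21, 16.3 and 16.6 TPM overlapped those at 6 months and the call was lost (-0.45, adjusted p = 0.116). Junb was lowest of all groups at 20 months, 0.61 ± 0.15 below 1 month (adjusted p = 0.00527) and 0.64 ± 0.15 below 6 months (adjusted p = 0.00403). Prdx2 was also called lower than at 6 months (-1.09, adjusted p = 0.0118), and the first Junb call was lost without 1-month library 1 (-0.37, adjusted p = 0.0606) and with only those groups in the fit (adjusted p = 0.0928). Fosb was 0.43 ± 0.13 below 1 month (adjusted p = 0.0224, lost without 1-month library 1 or 3 or 20-month library 1 or 3 and with 3 other settings, at adjusted p from 0.0585 to 0.0928) and 0.75 ± 0.13 below 6 months (adjusted p = 0.00034). Egr2 was 1.28 ± 0.18 below 1 month (adjusted p = 1.47e-05) and Fosl2 0.78 ± 0.19 above 6 months (adjusted p = 0.00436). Without 6-month library 2, Fos was called 0.84 lower at 20 months than at 6 months (log2 change -0.84, adjusted p = 0.0035), and without library 1 Fosl1 (-0.74, adjusted p = 0.0253) and Jund (-0.85, adjusted p = 0.0276) were. Fosl2 was called above 1 month without 1-month library 4 (0.60, adjusted p = 0.0369). With only the 6- and 20-month groups in the fit, or a variance for each group, 0 of 9 genes were called between those ages by limma, with 4 and 3 at an unadjusted p under 0.05.

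The marked groups were compared with the unmarked groups of the same genotype and age. Marked libraries took scaling factors of 0.656 to 0.870, and with TPM as deposited the median of all tested genes shifted by -0.391, -0.259 and -0.488 in the 3 comparisons, so changes are given relative to the trimmed mean and the exceptions are named. Jun was higher in all 3 marked groups, Fosl2 was lower in all 3, and Egr1 went up at 1 month and down at 6 months. The 519-marked Terc-/- cells had 8 of 9 genes called at 1 month (33.8% of tested genes) and 4 of 9 at 6 months (28.3%), and the gaiwei-marked wild-type cells 6 of 9 (46.6%).

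Fos measured 83.9, 71.5 and 80.0 TPM in 519-marked and 204, 232 and 235 TPM in unmarked Terc-/- cells at 1 month, and 55.7, 50.5 and 42.9 against 266, 217 and 130.3 TPM at 6 months. No marked library reached an unmarked library, and the changes were -1.01 ± 0.29 (adjusted p = 0.00762) and -1.66 ± 0.29 (adjusted p = 7.81e-05). In wild type Fos measured 56.4, 53.8 and 75.4 TPM with the gaiwei mark, and its change of -0.67 was not called (adjusted p = 0.0571). It was called with only those groups in the fit (adjusted p = 0.00914), with a variance for each group (adjusted p = 0.0229) or with TPM as deposited (-1.25, adjusted p = 0.00698). Fosl2 measured 26.8, 21.9 and 23.3 TPM with the 519 mark at 1 month, 48.0, 54.9 and 51.0 TPM at 6 months, and 26.6, 28.7 and 32.2 TPM with the gaiwei mark. Its changes were -1.32 (adjusted p = 5.18e-06), -0.58 (adjusted p = 0.0209) and -0.87 (adjusted p = 0.000519), each ± 0.19. The 6-month call was lost without unmarked library 1 or 2 or marked library 1 or 3, at -0.58 to -0.43, and with only those groups in the fit (adjusted p = 0.0549).

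Jun measured 55.3, 55.4 and 58.2 TPM with the 519 mark at 1 month, 82.4, 88.6 and 88.4 TPM at 6 months, and 73.7, 62.3 and 76.9 TPM with the gaiwei mark. The unmarked values were 66.4, 62.5 and 66.5, then 66.3, 62.2 and 69.1, then 54.8, 56.0 and 57.7 TPM. The scaled changes were 0.28 ± 0.09, 0.69 ± 0.09 (adjusted p = 4.09e-06) and 0.90 ± 0.09 (adjusted p = 3.83e-08). The first turned to -0.21 (adjusted p = 0.221) with TPM as deposited and was lost without unmarked library 4 or marked library 2 or 3. Junb measured 208, 224 and 239 TPM with the gaiwei mark and rose by 1.35 ± 0.15 (adjusted p = 1.16e-07), and Jund measured 39.8, 39.8 and 36.5 TPM and rose by 1.27 ± 0.32 (adjusted p = 0.00253). In 519-marked 1-month cells the Junb change of 0.49 ± 0.15 was 0.01 with TPM as deposited and was lost without unmarked library 1 or 4 or marked library 2. At 6 months the Junb change of 0.03 was not called, and it became -0.28 and was called with TPM as deposited (adjusted p = 0.0231).

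Fosb, Fosl1 and Egr2 were also called with the 519 mark at 1 month. Fosb measured 0.878, 1.07 and 1.38 TPM, above the unmarked 0.504, 0.382 and 0.632 TPM (0.74 ± 0.13). Fosl1 measured 11.3, 13.4 and 9.38 TPM against 7.12, 7.70 and 9.45 TPM, which overlapped, and its change was 0.89 ± 0.29. It was 0.44 and not called with TPM as deposited and was lost without unmarked library 1 or marked library 2. Egr2 measured 6.75, 5.65 and 4.89 TPM against 11.5, 11.5 and 17.5 TPM (-0.65 ± 0.18, adjusted p = 0.00679), a call lost without unmarked library 4. At 6 months Fosl1 was called without unmarked library 4 (0.88, adjusted p = 0.02).

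Egr1 gave the widest contrast. It measured 9.55, 9.01 and 9.56 TPM with the 519 mark at 1 month against 0.828, 2.03 and 2.93 TPM unmarked, but 6.11, 6.03 and 4.12 against 14, 18.4 and 23.2 TPM at 6 months. Each pair of groups was separate, in opposite directions, with changes of 2.32 ± 0.21 (adjusted p = 4.88e-09) and -1.33 ± 0.21 (adjusted p = 2.39e-05). The difference between them, in an interaction added after the data were seen, was -3.65 ± 0.29 (adjusted p = 9.47e-08), where 4.86% of tested genes were called and Fosb was the other of 2 called (-0.72 ± 0.19, adjusted p = 0.0278, lost without any 1 of 8 of the 12 libraries, with TPM as deposited and with the replicate block). Accordingly the age difference turned round: among 519-marked cells Egr1 was lower at 6 than at 1 month (-0.89 ± 0.21, adjusted p = 0.00323), as was Fos (-0.84 ± 0.29, adjusted p = 0.0361), while Fosl2 (0.89, adjusted p = 0.00134) and Jun (0.43, adjusted p = 0.00213) were higher, 4 of 9 genes in all against 23.8% of tested genes. That Fos call was lost without any 1 of the 6 libraries, with TPM as deposited and without the filter. In gaiwei-marked wild type Egr1 measured 9.60, 9.47 and 9.43 TPM and rose by 1.37 ± 0.21 (adjusted p = 7.53e-06), while Egr2, at 5.75, 6.58 and 6.32 TPM, fell by 0.90 ± 0.18 (adjusted p = 0.000248).

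The marked 1-month groups carry different marks, 519 in Terc-/- and gaiwei in wild type, so genotype cannot be told apart from the mark between them. For 519-marked Terc-/- minus gaiwei-marked wild type, 1 of 9 genes was called (3.42% of tested genes): Jun, at -0.38 ± 0.09 (adjusted p = 0.0245), a call lost with TPM as deposited, with only those groups in the fit, and without any 1 of 5 of the 6 libraries. The Junb difference there was -0.02 and the Jund difference 0.23, against 0.83 and 1.26 in unmarked cells. In an interaction added after the data were seen, that difference minus the genotype difference in unmarked cells was called for Junb (-0.86 ± 0.22, adjusted p = 0.0121), Jun (-0.62, adjusted p = 0.00418), Fosb (0.70, adjusted p = 0.019) and Egr1 (0.95, adjusted p = 0.0367), 4 of 9 against 10.7% of tested genes. It joins 2 marks, and its unmarked wild-type group is the one with high Xist, so genotype, mark and sex cannot be told apart in it. The Egr1 call was lost without any 1 of 7 of the 12 libraries, without the filter, with a variance for each group and with only those groups in the fit, and the Fosb call without any 1 of 3 libraries. With only those groups in the fit the Junb and Fosb calls were lost (adjusted p = 0.0513 and 0.0783), and the Jun call was lost with TPM as deposited (adjusted p = 0.0936). For Jund the difference of -1.03 was not called, except with a variance for each group (adjusted p = 0.0144) or without wild-type unmarked library 1 (-1.37, adjusted p = 0.0423). Marked libraries also differed in makeup: 9 neutrophil markers summed to 1200 to 3296 TPM in them and to 2.99 to 203 TPM in unmarked large cells, with Elane at 0 in all 3 marked groups. Mpo was also at 0 in both 519 groups, S100a9 in that of 1 month and Cxcr2 in that of 6 months. The 10 osteoclast markers summed to 659 to 2158 TPM in marked libraries and to 4626 to 28145 TPM in unmarked large cells. For the 9 macrophage markers the sums were 41910 to 72205 and 15605 to 44944 TPM. The lower mitochondrial share given above moved with the mark too, and the part of these differences in makeup was not tested.

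Shares within a family do not depend on scaling between libraries. Fos made up 21.9% ± 2.84 (SD, n = 3) of the summed Fos-family TPM after 2 days at 6 months and 64.7% ± 12.3 in large cells, and 37.5% ± 1.73 and 51.0% ± 3.35 at 20 months. Without library 2 of the 6-month large cells the Fos mean was 71.8%. Fosl1 went from 29.3% ± 0.650 to 7.87% ± 6.88 (2.13%, 15.5% and 5.99% in libraries 1, 2 and 4, with a mean of 4.06% without library 2) and from 21.2% ± 0.600 to 4.40% ± 0.468. Fosb was the smallest member in every group, from 6.16% ± 0.798 at most to 0.158% ± 0.0314. In the Jun family Junb was the largest member throughout, from 52.9% ± 1.28 in 20-month wild-type large cells to 70.3% ± 1.40 in 6-month Terc-/- cells. In the Egr family the leading gene changed: Egr1 made up 11.8% ± 4.66 and 20.8% ± 6.33 in unmarked 1-month Terc-/- and wild-type cells, and 63.7% ± 8.60, 76.6% ± 0.218 and 67.0% ± 3.96 in the unmarked large cells of 6-month Terc-/-, 6-month and 20-month wild type. Marked cells had the reverse order. Egr1 made up 61.4% ± 3.84 with the 519 mark and 59.6% ± 2.43 with the gaiwei mark at 1 month. In 519-marked cells of 6 months Egr1 made up 38.3% ± 4.25 and Egr2 58.6% ± 4.59. With 3 libraries against 3, an exact two-sided permutation test cannot give a p below 0.1, so these shares are given without a call.

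**Figure D3:**
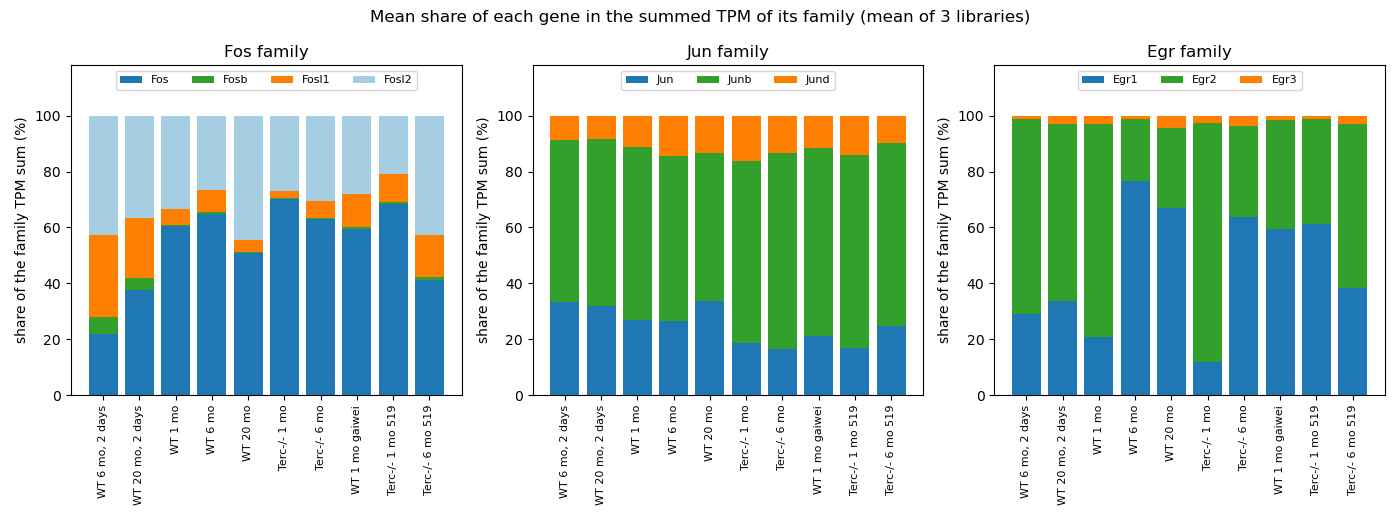
Bars give the mean share (%) of each gene in the summed TPM of the Fos, Jun and Egr families, over 3 libraries per group. Egr2 holds most of the Egr bar after 2 days and at 1 month in unmarked cells, and Egr1 most of it in the unmarked 6- and 20-month large cells. In marked cells Egr1 holds most of it at 1 month and Egr2 at 6 months.

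Other genes of the AP-1 and growth factor response were read from lists. Of 34 other immediate early genes 32 were tested. Between 2 days and large cells 5 rose and 19 fell at 6 months (median log2 change -0.71, against -0.00 over all genes), where 25% of tested genes rose and 24.9% fell. At 20 months 3 rose and 15 fell (median -0.55), where 17% of tested genes rose and 19.6% fell. With only those groups in the fit 1 rose and 12 fell at 6 months, and 4 rose and 19 fell there with 6-month library 2 also left out. Those with the smallest adjusted p were Csrnp1 (-1.13 at 6 months), Trib1, a pseudokinase (-0.70 and -1.27), Tnfaip3, the NF-kB inhibitor A20 (-1.62 at 6 months), and Dusp5, an ERK phosphatase (-1.91 and -2.84), while Klf4 rose at 20 months (1.77). Jdp2, an AP-1 partner known to promote osteoclast formation, rose by 3.09 ± 0.19 and 2.38 ± 0.19, and it was lower, by log2 changes of -2.29, -2.27 and -2.09, in the 519-marked 1-month, 519-marked 6-month and gaiwei-marked cells. Of 13 other bZIP partners of AP-1, a list that includes Jdp2, 11 were tested: 3 rose and 2 fell in large cells at 6 months, and 2 rose and 3 fell at 20 months. They included Maff, a small Maf protein, which fell with large cells at both ages (-1.43 and -0.78), and Batf, which rose in the marked cells (2.10, 1.47 and 2.70). Among 16 upstream genes 4 rose and 9 fell at 6 months and 3 rose and 4 fell at 20 months. The RANK receptor gene Tnfrsf11a rose in large cells (2.47 and 1.66) and Srf, which binds the CArG box, fell (-0.89 and -0.83). Of 10 genes known as AP-1 targets 5 rose and 2 fell at 6 months and 5 rose and 3 fell at 20 months. The 5 that rose, Nfatc1, Acp5, Ctsk, Mmp9 and Itgb3, are also among the 10 osteoclast markers, of which 10 rose at both ages, so this count is not separate from theirs. Acp5 and Ctsk, the osteoclast phosphatase and collagenase genes, rose by 8.21 and 7.0 at 6 months and 5.85 and 5.38 at 20 months.

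In Terc-/- against wild type, 5 other immediate early genes rose and 8 fell at 1 month (15.5% of tested genes in each direction). At 6 months 11 rose and 2 fell (15.5% and 13.2% of tested genes). With only those groups in the fit 2 rose and 6 fell at 1 month, and at 6 months limma called 0 (10 at an unadjusted p under 0.05), or 5 higher with 6-month wild-type library 2 also left out. With a variance for each group 2 rose at 6 months, and with TPM as deposited 1 rose and 9 fell at 1 month. Without 1 library the 1-month counts ran from 1 to 6 higher and 5 to 8 lower, with 1 higher without Terc-/- library 3 or wild-type library 4 and 2 without wild-type library 3. Ccn2 and Ccn1, matricellular genes also made by stromal cells, had the largest changes among those named at 1 month (-2.47 ± 0.30 and -2.06 ± 0.30), beside the lower stromal marker sums given above. Among the bZIP partners Atf3 (1.42 and 1.24) and Mafg (0.63 and 0.90) rose at both ages, as did Id2, an Egr-Nab target (0.53 and 1.38). Of 10 genes known as AP-1 targets, Hmox1 and Ccl2 rose at both ages (1.25 and 1.26 for Hmox1, 0.93 and 1.17 for Ccl2), whereas Il1b fell at 1 month (-2.52). Of 7 heat shock genes 2 fell at 1 month and 3 at 6 months, with Hsp90aa1 among them at both (-0.89 and -0.96), and the others were not called.

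With age in Terc-/- cells, 14 other immediate early genes rose from 1 to 6 months and the other 18 were not called (median 0.44 against 0.00 over all genes). Of all tested genes 3% rose and 1.02% fell. Only 7 rose with only those groups in the fit, and 8 without 1-month library 1 or without 6-month library 4. Stromal and osteoblast markers moved too: 6 of the 10 tested rose and 0 fell by limma (median 1.35), and their summed level was 312 to 623 TPM at 1 month and 441 to 2094 TPM at 6 months. Their part in the rise was not tested. Those with the smallest adjusted p were Nfkbiz (1.34), Trib1 (0.68), Socs3 (1.53) and Ier3 (2.08). In wild type 4 rose and 2 fell over the same ages (3.91% and 5.66% of tested genes), Ier2 (1.14), Klf2 (1.31), Dusp1 (0.61) and Klf4 (-0.77) having the smallest adjusted p. The age change differed between genotypes for Nfkbiz, Socs3, Trib1 and Ier3 by limma's interaction term (1.21, 1.25, 0.49 and 1.5, adjusted p = 0.00236, 0.0107, 0.0248 and 0.0474). With only those groups in the fit limma called 0 of the 32 in that interaction and 0 for wild type from 1 to 6 months (9 and 4 at an unadjusted p under 0.05), and with a variance for each group also 0 (6 and 3). At 20 months against 6 months in wild type, 1 rose (Klf4, 1.49) and 12 fell (11.4% and 16.2% of tested genes). With only those groups in the fit limma called 0 (12 at an unadjusted p under 0.05), and with a variance for each group 1 rose and 1 fell. With TPM as deposited 7 fell, and without 6-month library 2 8 fell. With the 519 mark 17 rose and 4 fell at 1 month (19.1% and 14.8% of tested genes) and 10 rose and 3 fell at 6 months (15.3% and 13%). With the gaiwei mark 20 rose and 6 fell (24.7% and 22%). With TPM as deposited these counts were 13 and 5, 6 and 6, and 13 and 9. Socs3 (2.52, 2.07 and 3.42) and Nfkbiz (2.30, 1.66 and 2.49), targets of STAT3 and NF-kB signalling, were among those with the smallest adjusted p in each.

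**Figure D4:**
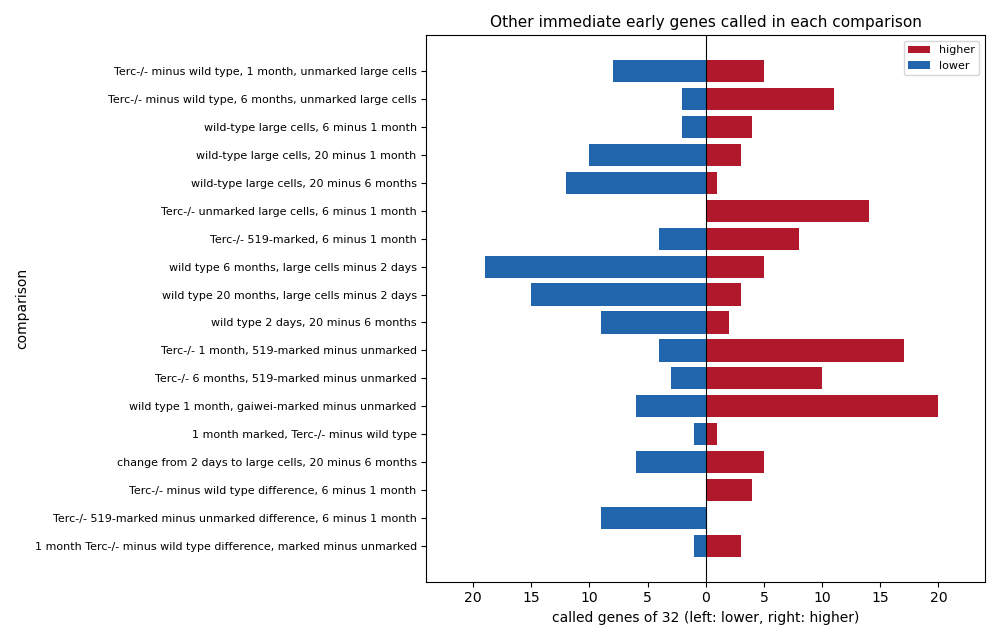
Bars count the other immediate early genes called by limma in each comparison, of 32 tested, with lower genes to the left of 0 and higher genes to the right. The large-cell comparisons point left (19 and 15 lower) and the marked comparisons point right (17, 10 and 20 higher).

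Genes whose pattern over the 30 libraries was most like each of the 9 are given as descriptions, since libraries of a group share their culture condition. For Fos they were Mitf, an osteoclast and melanocyte transcription factor (Pearson r = 0.96), Sema4d (0.95) and Oit3 (0.95), and for Fosl2 Gnptab (0.94), Prdm1 (0.93) and Ermp1 (0.92). For Fosb they were Rgs16 (0.94), Sdcbp2 (0.93) and Has2 (0.91), and for Fosl1 Cfap43 (0.88) and Maff (0.88) are given. For Junb they were Slc48a1 (0.97), Orai1 (0.97) and Map3k11 (0.96), and for Jund Cox8a, Oaz1 and Mrpl14 (each 0.97). The likeness of Jun to Slc9a3r1 (0.95) was 0.57 with TPM as deposited, so it moved with the scaling. Egr2 was nearest to Capn2, Rrp8 and Epb41l1 (0.90, 0.90 and 0.89), and Egr1 had no gene as close, with Rpl39l at 0.75. Among the genes themselves, Fos ran against Fosl1 (-0.85) and Fosb (-0.81), Fosb ran with Fosl1 (0.75), and Junb ran with Jund (0.88). In the fit without the filter on low levels, Egr3 was called in 0 of 18 comparisons by limma, with 4 at an unadjusted p under 0.05 and adjusted p from 0.166 to 1.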

How the data were processed

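RNA was measured in 30 libraries, and the authors' deposited tables hold TPM, as judged from the values, since libraries share a total and the file headers give only sample titles. HTSeq and mm10 are named without versions per the submitters' processing notes. The aligner was not given in the sources used here. TPM keeps no read depth, so depth is unknown. The 5 tables were joined on 45706 identifiers, with titles tying columns to samples. TPM were scaled by a trimmed mean of log ratios (30% and 5% trimmed) and taken as log2(scaled TPM + 1). Genes averaging at least 1 TPM (12614) were fitted in R 4.3.3 with limma 3.58.1, with 10 group means in a single fit and moderated variances (trend and robust options of eBayes). The Benjamini-Hochberg adjustment ran over all tested genes of a comparison, with a threshold of 0.05. The code was tested on simulated data. Members and lists were chosen with earlier results of these data known. Named genes are the 10 members, up to 4 called genes per list with the smallest adjusted p, and the 3 most alike genes averaging at least 5 TPM, with predicted genes left out. Of the genes so named, 2 are not reported here. Lists of heat shock, Egr corepressor, upstream and AP-1 target genes and of markers were read too. Alternatives were a replicate block, fits of only the groups compared or with a variance for each group, TPM as deposited, scaling by median ratios, the smaller pseudocount 0.1, all genes unfiltered, and each library left out in turn. Those for the list counts, and shares without the 6-month wild-type library 2, were added after the data were seen. Figures used Python 3.11.15 and matplotlib 3.10.9.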

Additional observations from a re-analysis of the deposited data

Results flagged for a closer look

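Differences between 2 groups' changes under the same comparison, each from limma's interaction term with an adjusted p under 0.05, were as follows. The change from 2 days to large cells at 20 months minus that at 6 months was -1.13 for Fos, 0.90 for Fosl2, -0.90 for Junb and 0.93 for Egr2. The 519-marked minus unmarked difference in Terc-/- cells at 6 months minus that at 1 month was -0.72 for Fosb and -3.65 for Egr1. The Terc-/- minus wild-type difference at 1 month in marked minus unmarked cells was 0.70 for Fosb, -0.62 for Jun, -0.86 for Junb and 0.95 for Egr1. In that last difference the mark is 519 in Terc-/- and gaiwei in wild type, so genotype and mark cannot be told apart. The last 2 interactions were added after the data were seen. No group had the 4 or more libraries that a check for single outlying libraries needs.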

How the results depend on the processing

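Of 162 gene-by-comparison results, 157 kept direction and side of the threshold with median-ratio scaling, 158 with a pseudocount of 0.1, 155 without the filter, 140 with TPM as deposited, 132 with a variance for each group and 128 with only the groups compared. The signs turned for 2, both with TPM as deposited: Jun in 519-marked minus unmarked Terc-/- cells at 1 month (-0.21) and Junb at 6 months (-0.28). The cause of the changes below was not tested. Numbers of the 9 genes called moved as follows. With TPM as deposited they were 5 with the 519 mark at 1 month, 2 for genotype at 6 months, 0 between the marked 1-month groups (1 at an unadjusted p under 0.05) and 1 for the 519 by age interaction. Without the filter 2 were called for genotype at 6 months. With a variance for each group they were 6 after 2 days, 1 for genotype at 6 months, 0 for 20 against 6 months, 1 for 6 against 1 month, 6 for the 519 by age and 2 for the culture stage by age interactions, and 3 for large cells at 6 months. With only the groups compared they were 6 after 2 days, 1 for Terc-/- age, 0 for genotype at 6 months, 2 for 20 against 1 month, 0 for 20 against 6 months and 1 for 6 against 1 month. The same setting gave 6 for the 519 by age, 1 for the genotype by mark and 2 for the culture stage by age interactions, and 0 between the marked groups (3 at an unadjusted p under 0.05). With 6-month wild-type library 2 also left out, chosen after seeing the data, they were 2 for genotype at 6 months and 1 for 6 against 1 month.

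The labels do not say whether replicate numbers pair the libraries. In no comparison with 3 shared numbers did every pair correlate above 0.1. Among comparisons with fewer shared numbers, both pairs did for unmarked Terc-/- age (r = 0.327 and 0.169) and for the gaiwei mark (r = 0.245 and 0.230). These few correlations cannot exclude pairing. The replicate block kept 161 of 162 results and lost Fosb in the 519 by age interaction (adjusted p = 0.0506), leaving 1 call.

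Leaving out 1 library gave 1 to 2 calls after 2 days, 5 to 8 and 3 to 5 for the 519 mark at 1 and 6 months, and 3 for 519-marked age. It gave 1 to 3 for Terc-/- age, 3 to 5 and 1 to 3 for genotype at 1 and 6 months, 2 to 5 for 20 against 1 month, 4 to 6 for 20 against 6 months, and 2 to 3 for 6 against 1 month. It gave 6 for gaiwei, 7 to 8 and 5 to 8 for large cells at 20 and 6 months and 0 to 1 between marked groups. For interactions it gave 1 to 2 (519 by age), 0 to 1 (genotype by age), 2 to 4 (genotype by mark) and 3 to 4 (culture stage by age).

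TPM holds no depth, so precision rests on 3 libraries a group. Counts over all genes moved by over 1.5 times in many comparisons, here first with a variance for each group and then with only the groups compared. They became 444 and 91 for genotype at 6 months (3624), 36 and 26 for 6 against 1 month (1207), 273 and 162 for 20 against 6 months (3482), and 2460 and 1925 for large cells at 6 months (6299). They became 5114 and 4688 after 2 days (2213), 6442 and 5675 for 519-marked age (3004), 1770 and 2048 for culture stage by age (3220), 42 and 60 for genotype by age (472), and 2056 and 1777 for 519 by age (613). With a variance for each group alone they became 7221 for large cells at 20 months (4611) and 980 between marked groups (431). With only the groups compared they became 155 for Terc-/- age (507), 1817 for 20 against 1 month (2840) and 2589 for genotype at 1 month (3900). With TPM as deposited they became 282 between marked groups and 277 for 519 by age. Without 1 library they ran from 578 (1-month library 3) to 4347 (6-month library 1) for 6 against 1 month, from 2096 to 6340 (6-month libraries 2 and 1) for 20 against 6 months, from 229 to 794 (6-month libraries 4 and 1) for Terc-/- age, from 276 to 1591 for genotype by age, and down to 201 between marked groups, 298 for 519 by age, 1292 after 2 days and 1728 for 519-marked age. Without 6-month wild-type library 1 they were 5177 for culture stage by age. With TPM as deposited, 3155 higher and 3144 lower genes in large cells at 6 months became 1627 and 5323, 2405 and 1861 with the 519 mark at 1 month became 878 and 4812, 1934 and 1639 at 6 months became 884 and 3418, 3113 and 2770 with the gaiwei mark became 1225 and 6250, and 1435 and 2047 for 20 against 6 months became 2519 and 1019.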
